A study of Mus musculus with 4 samples.

Results

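The genes described here are ATF4 targets together with the amino acid synthesis enzymes, amino acid transporters and cytosolic aminoacyl-tRNA synthetases that the same pathway serves. A gene was taken where the platform annotation gave a row exactly 1 symbol equal to a name on the list, and where a gene had several rows the brightest, averaged over the 4 arrays, stood for it. This left 37 of 41 listed genes, out of 22180 genes in the series. Pycr1 and Dars had no row under their symbol. Mars was listed under its newer symbol Mars1, and the row of Aars was shared with Exosc6, so both were left out.

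Whole pancreas was taken at day 5 of cerulein treatment from mice aged 8 weeks, and its RNA was hybridised to Affymetrix arrays. Cerulein, an analog of cholecystokinin, acts on acinar cells, and repeated high doses of it cause pancreatitis. All mice received it, at 100 µg/kg in 6 injections a day on alternate days. The groups were Ifrd1 null mice (n = 2), which lack a transcriptional co-regulator, and wild-type (WT) mice (n = 2). Neither the strain, sex and litter of the mice nor the design of the null allele is given in the sources used here, and untreated pancreas was not analysed here.

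ATF4 is the transcription factor of the integrated stress response. Kinases that sense missing amino acids, unfolded protein in the endoplasmic reticulum, viral RNA or lack of heme phosphorylate the initiation factor eIF2, which slows translation in general and lets the Atf4 mRNA be translated. ATF4 then pairs with C/EBP-family partners at composite C/EBP-ATF elements and switches on genes that import amino acids, make them and load them onto tRNA. ATF4 is set largely at the step of translation, so its mRNA level is an incomplete measure of the protein. Acinar cells make more protein than almost any other cell and depend on this supply.

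Values are the authors' deposited levels, read as log2, and differences are Ifrd1 null minus WT. Ifrd1 itself stood at 6.99 and 7.09 in the null arrays, against 9.04 and 9.07 in the WT arrays, a difference of -2.02 ± 0.11 (SE; limma adjusted p = 0.138, and 0.0349 with arrays centred on their medians). Xist stood at 10.15 and 9.58 in the null arrays, against 2.56 and 3.54 in the WT arrays, and 3 Y-linked genes (Uty, Kdm5d and Eif2s3y) were higher in both WT arrays. Sex as read from these genes and genotype therefore cannot be told apart. Eif2s3y encodes the Y-linked form of the gamma subunit of eIF2, the factor at the head of this pathway, and stood at 3.03 and 2.96 in the null arrays, against 7.29 and 6.71 in the WT arrays. The X-linked form, Eif2s3x, had no row with its symbol alone, so the level of the subunit as a whole was not measured here. Acinar markers, from digestive enzymes such as Cela1 and Ctrb1 to the factors Ptf1a and Rbpjl, lay above the array median in all arrays (12 of 12 measured), pancreas being the labelled tissue.

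The promoters of several members hold the core of the C/EBP-ATF element, shown here because it is the DNA sequence at which ATF4 and its partners act. The core TGATGNAA was searched on both strands, where its other strand reads TTNCATCA, in windows from 250 bases before to 50 after each RefSeq start site (GRCm38.p6). Of the 37 members 29 had a window under their symbol, and Slc7a5, Cars, Hars, Lars, Nars, Rars, Vars and Wars had none. The core was found in 10 of these 29 genes (34.5%), against 1219 of 27025 genes with a window (4.51%). The narrower core TGATGCAA, which is one of the forms of TGATGNAA, was found in 7 of the 29 (24.1%), against 279 of all (1.03%). The list was drawn up from known ATF4 targets, so a raised share is built into its choice, and a match is not a measured binding site. Below, windows of 280 bases, from 250 before to 30 after the start site, are given 5′ to 3′ on the strand of the gene for the 4 members with the core that had the highest mean level, with the core in capitals. They are Nupr1 at chr7:126625441-126625720 (minus strand), Gars at chr6:55037751-55038030 (plus strand), Iars at chr13:49681880-49682159 (plus strand) and Asns at chr6:7693180-7693459 (minus strand).
Nupr1: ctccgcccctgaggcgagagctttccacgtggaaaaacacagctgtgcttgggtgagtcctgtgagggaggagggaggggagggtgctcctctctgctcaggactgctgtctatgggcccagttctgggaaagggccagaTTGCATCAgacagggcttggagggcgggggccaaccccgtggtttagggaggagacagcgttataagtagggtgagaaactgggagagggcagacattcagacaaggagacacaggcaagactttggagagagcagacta
Gars: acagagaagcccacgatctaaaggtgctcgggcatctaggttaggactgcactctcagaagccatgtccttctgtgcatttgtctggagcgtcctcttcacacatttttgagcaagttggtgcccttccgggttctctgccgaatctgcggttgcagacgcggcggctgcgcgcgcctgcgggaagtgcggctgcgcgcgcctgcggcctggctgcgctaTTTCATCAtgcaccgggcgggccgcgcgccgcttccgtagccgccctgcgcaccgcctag
Iars: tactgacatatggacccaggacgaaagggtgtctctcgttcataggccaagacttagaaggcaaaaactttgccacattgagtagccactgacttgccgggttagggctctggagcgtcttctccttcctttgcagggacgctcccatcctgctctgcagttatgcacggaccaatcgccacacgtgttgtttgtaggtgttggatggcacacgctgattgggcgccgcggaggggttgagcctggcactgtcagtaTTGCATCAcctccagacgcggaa
Asns: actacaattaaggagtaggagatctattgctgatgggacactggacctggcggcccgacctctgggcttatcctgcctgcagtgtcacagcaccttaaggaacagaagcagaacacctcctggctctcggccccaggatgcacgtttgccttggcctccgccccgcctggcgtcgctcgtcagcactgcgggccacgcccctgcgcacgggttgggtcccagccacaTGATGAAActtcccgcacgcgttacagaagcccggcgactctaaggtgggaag

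In Nupr1 the core began 110 bases before the start site, in Gars 30 before and in Asns 23 before, while in Iars it began at base 8 after it, counting the start site as base 1. To compare the flanks, all 11 matches are given next in the orientation of the core, with 8 bases on each side and the core in capitals.
Nupr1: gccctgtcTGATGCAAtctggccc
Gars: ccggtgcaTGATGAAAtagcgcag
Iars: tctggaggTGATGCAAtactgaca
Asns: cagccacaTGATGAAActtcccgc
Tars: taaccagcTGATGCAAcgggactc
Yars: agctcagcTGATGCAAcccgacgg
Chac1: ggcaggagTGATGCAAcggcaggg
Vldlr: aggagcgcTGATGCAActattgct
Trib3: cgcccggcTGATGTAAacctgagc
Slc7a11 first copy: catgtggcTGATGCAAacctggag
Slc7a11 second copy: ctgcatgaTGATGCAAattctcca
The matches in Gars, Asns and Trib3 carried another base at the open position, and the other 8 carried the TGATGCAA form. Slc7a11, the cystine importer, was the member with 2 copies, which began 66 and 47 bases before its start site.

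No member passed the genotype test. In limma over all 22180 genes, 0 of 37 members had an adjusted p under 0.05, where 0.00451% of all genes did, and the lowest adjusted p among members was 0.722. At unadjusted p under 0.05 there were also 0 members, against 3.63% of all genes lower and 3.27% higher in the null (among the 11090 genes above the median level, 5.41% and 1.23%). With 2 arrays against 2, an exact two-sided permutation test of 1 value cannot give less than p = 0.333. The widest member differences were -0.44 ± 0.17 for Sars and 0.40 ± 0.25 for Slc7a5 (log2, SE), which are 1.35-fold lower and 1.32-fold higher. The member intervals were wide: that of Wars ran from -1.17 to 0.90, and that of Asns from -1.09 to 0.63 (limma, 95%).

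Read as a group, 27 of 37 members were lower and 10 higher in the null, with a median difference of -0.12. Over all genes 52.7% were lower, with a median of -0.01, and over the 11090 genes above the median level, where all 37 members lie, 67.3% were lower, with a median of -0.07. The share of members that were lower, 73.0%, was thus close to that of other well-expressed genes. The groups did not overlap for 10 members that were lower in both null arrays, where 19.7% of all genes and 29.1% of genes above the median level did so, and for 1 member that was higher, where 16.1% and 8.82% did so. The count rested on single arrays: 13 members were lower without Ifrd1 null 1 (median 0.10), 33 without Ifrd1 null 2 (-0.24), 30 without WT 1 (-0.20) and 21 without WT 2 (-0.05). With quantile normalization 23 were lower, with a median of -0.06. With the rows of Mars1 and of Aars with Exosc6 added, 28 of 39 were lower.

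**Figure D1:**
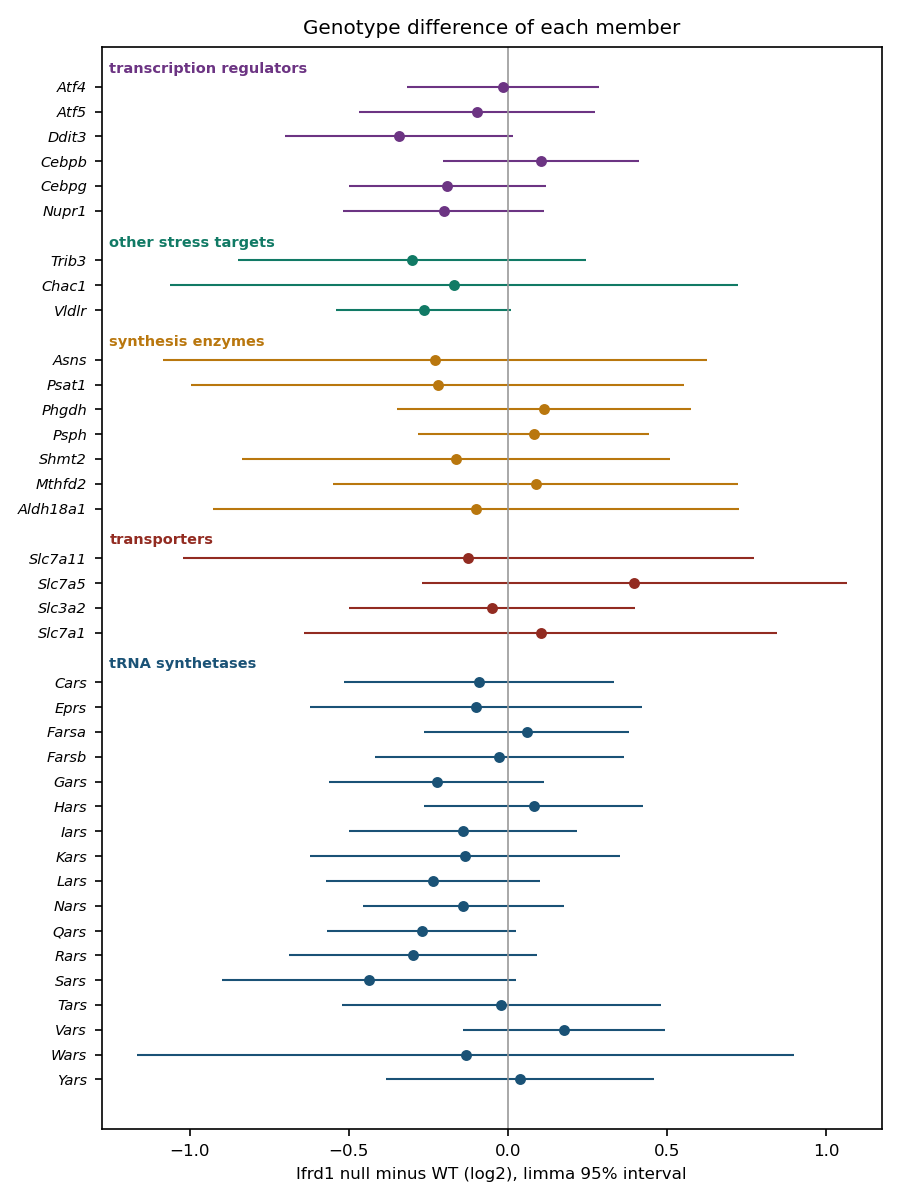
Ifrd1 null minus WT (x axis, log2) for each of the 37 members, grouped by role, with points for the limma estimate and lines for its 95% interval. All 37 lines cross 0, and they are widest for members such as Wars and Asns whose null arrays lay far apart.

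The values by array showed a wide gap between the null mice. Of the 37 members 33 were lower in null 1 than in null 2, with a median gap of -0.32, where 11096 of all 22180 genes were lower and the median absolute gap was 0.17. The WT arrays had the same order but lay closer. WT 1 was below WT 2 for 31 of 37 members (83.8%, against 51.9% of all genes), with a median gap of -0.10. Their median absolute gap over the members was 0.11, and the null gap was the wider one for 31 of 37 members, against 55.4% of all genes. Null 1 lay below both WT arrays for 31 members (83.8%, against 38.3% of all genes and 50.1% of genes above the median level). Null 2 lay above both WT arrays for 20 members (54.1%, against 34.6% and 25.4%). For 20 members null 1 was below the WT mean and null 2 above it, which held for 19.8% of all genes. A mean over the null pair thus averaged values on opposite sides of WT for these 20.

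**Figure D2:**
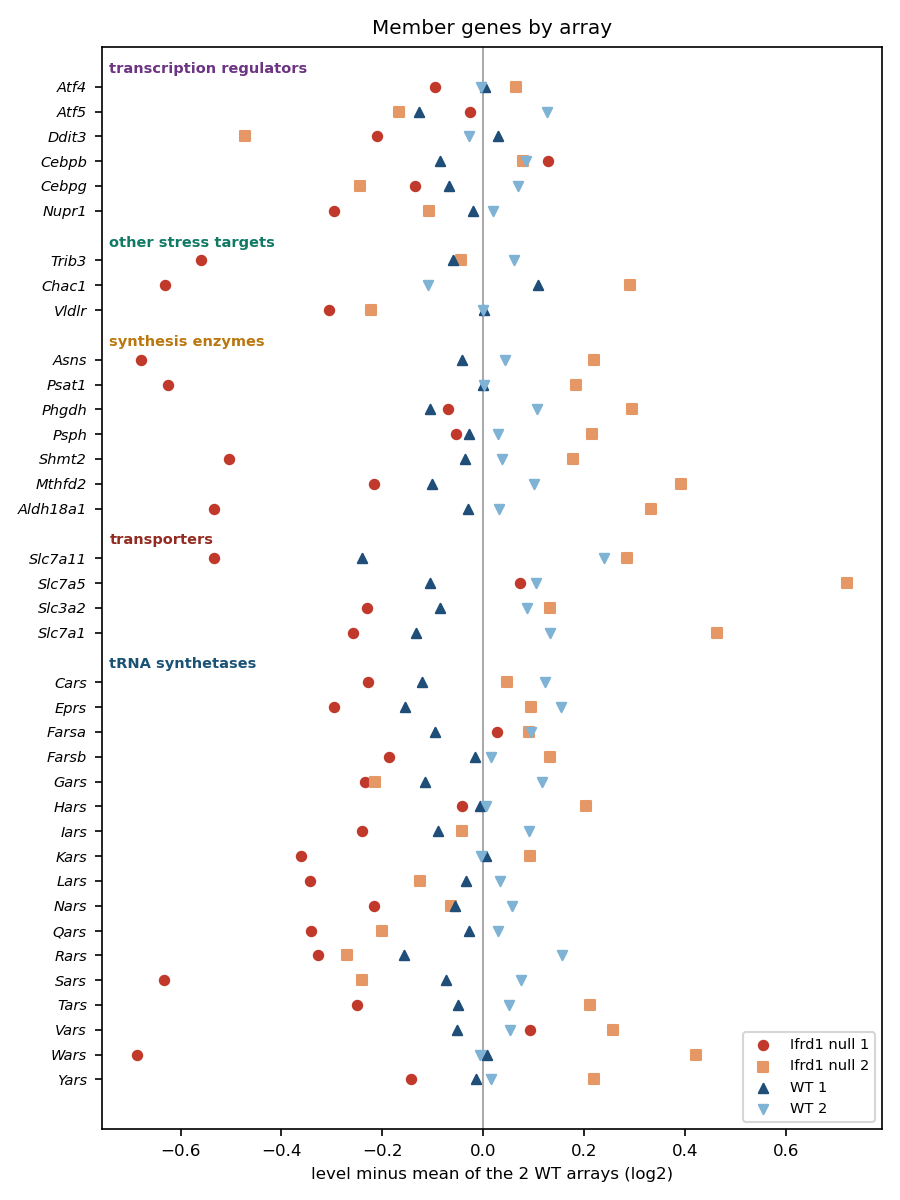
Level of each member minus its mean over the 2 WT arrays (x axis, log2), with circles and squares for the Ifrd1 null arrays and triangles for the WT arrays, grouped by role. Synthesis enzymes and transporters have null 1 at the left and null 2 at the right of the WT arrays in most lines, while Ddit3, Vldlr, Qars, Rars and Sars have both null arrays on the left.

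Acinar markers split the null arrays in the same direction. Their median stood at -0.29 in null 1 and 0.30 in null 2, against -0.001 and 0.001 in the WT arrays, and 12 of 12 were lower in null 1 than in null 2. Summed on a linear scale, the acinar markers came to 49806 and 69185 in the null arrays, against 58782 and 57837 in the WT arrays. Of 9 marker lists for other cells, 7 had a higher list median in null 1 than in null 2. Taken gene by gene, the median gap between the null arrays was only 0.001 for islet markers, which are among the 7. It was 0.02 for endothelial markers, which are not. B and plasma cell markers stood at 1.11 in null 1 and -0.62 in null 2, adipocyte markers at 0.77 and -0.32, T and NK cell markers at 0.62 and 0.17, stellate and fibroblast markers at 0.14 and -0.45, and macrophage markers at 0.04 and -0.59 (median minus the WT mean). Duct markers had medians of -0.28 in null 1 and -0.44 in null 2, and islet markers of -0.15 and -0.32. Neither list moved as a whole. Of 6 duct markers 5 were below the WT mean in null 1 and 4 in null 2. Of 7 islet markers 4 were lower in both null arrays than in both WT arrays, and 2, Gcg and Sst, were higher. Endothelial markers, at -0.27 and -0.25, showed almost no split. Markers of intestinal epithelium had medians of -0.93 and -0.62, and 4 of 6 were lower in null 1 than in null 2. The WT arrays stood apart for this list, at 0.22 and -0.22, with Lgals4 at 7.24 in WT 1 and 4.31 in WT 2. Of these 6 markers 4 lay below the array median in at least 1 array. The part of cell composition in the members' values was not tested. In whole tissue, fewer cells of a type and less RNA per cell cannot be told apart.

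**Figure D3:**
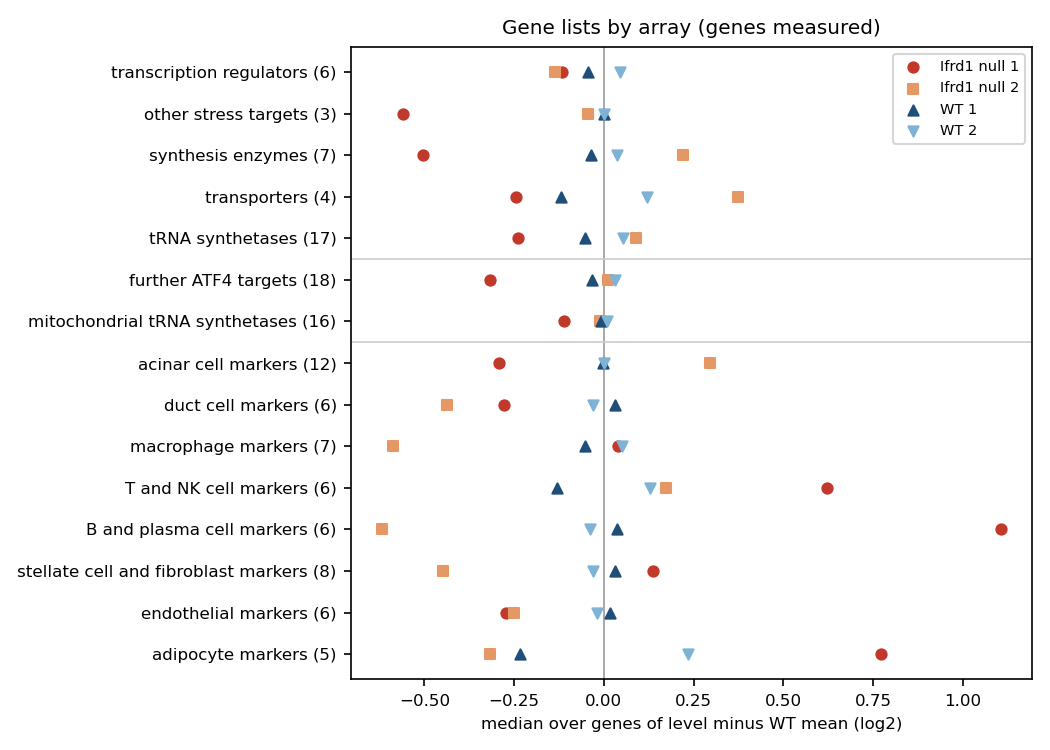
Median over the genes of each list of the level minus the WT mean (x axis, log2) in each array, for the member groups, for 2 further lists of the pathway and for markers of cell types, with the number of genes measured in brackets. Transporters, synthesis enzymes and acinar markers have null 1 on the left and null 2 on the right of the WT arrays, whereas B and plasma cell, adipocyte and stellate markers have them the other way round.

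The transcription regulators were not ordered in that way. Over the 6 of them the median difference was -0.14, 5 were lower and 1 higher in the null, and 4 of 6 were higher in null 1 than in null 2, with a widest gap of 0.26 (Ddit3). The median was -0.12 without Ifrd1 null 2 and -0.14 without Ifrd1 null 1, and it was -0.05 with quantile normalization, -0.07 without WT 2 and -0.22 without WT 1.

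Atf4 was at 7.37 and 7.53 in the null arrays, against 7.47 and 7.46 in the WT arrays. Its groups overlapped, and the difference was -0.02 ± 0.11 (SE), with an interval from -0.32 to 0.29 and a sign that turned with quantile normalization (0.07). Atf5, a related factor under the same translational control, was at 8.14 and 8.00 in the null arrays, against 8.04 and 8.30 in the WT arrays (-0.10 ± 0.14, SE). Cebpb, a C/EBP partner of ATF4, was at 5.54 and 5.49 in the null arrays, against 5.32 and 5.49 in the WT arrays, and was the regulator with a positive difference (0.10 ± 0.12, SE).

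Ddit3 encodes CHOP, the factor that links lasting stress to cell death. It was at 6.15 and 5.89 in the null arrays, against 6.39 and 6.34 in the WT arrays. Both null arrays lay below both WT arrays, the mean was 1.27-fold lower (-0.34 ± 0.13, SE), and limma gave an adjusted p of 0.722. Cebpg, which heterodimerises with ATF4, was at 7.22 and 7.10 in the null arrays, against 7.28 and 7.42 in the WT arrays (-0.19 ± 0.12, SE). Nupr1, a stress protein first found in pancreatitis, was at 11.52 and 11.71 in the null arrays, against 11.79 and 11.83 in the WT arrays (-0.20 ± 0.12, SE). Cebpg and Nupr1 thus had groups that did not overlap, with the smaller gap to the WT arrays in null 1 for Cebpg and in null 2 for Nupr1.

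The remaining stress targets were Trib3, Chac1 and Vldlr. Trib3, a pseudokinase that feeds back on ATF4 and CHOP, was at 5.76 and 6.28 in the null arrays, against 6.26 and 6.38 in the WT arrays (-0.30 ± 0.20, SE). Chac1, which degrades glutathione, was at 6.16 and 7.08 in the null arrays, against 6.90 and 6.68 in the WT arrays, so null 1 lay below and null 2 above both WT arrays (-0.17 ± 0.33, SE). Vldlr, a lipoprotein receptor that ATF4 induces, was at 6.19 and 6.28 in the null arrays, against 6.50 and 6.50 in the WT arrays. Its groups did not overlap and its difference of -0.26 ± 0.10 (SE) had a limma adjusted p of 0.722. The median of the 3 was -0.26, and -0.56 without Ifrd1 null 2 and -0.04 without Ifrd1 null 1.

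All 7 synthesis enzymes had the null arrays on opposite sides of the WT mean. Null 2 lay above both WT arrays for 7 of 7, null 1 lay below the WT mean for 7 of 7 and below both WT arrays for 6 of 7, and the median gap between the null arrays was -0.68, against -0.07 between the WT arrays. WT 1 was also below WT 2 for 7 of 7. The groups overlapped for all 7. Their median difference of -0.10 changed to 0.22 without Ifrd1 null 1, to -0.50 without Ifrd1 null 2 and to -0.02 with quantile normalization.

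Asns makes asparagine from aspartate and is a classic ATF4 target. It was at 8.44 and 9.34 in the null arrays, against 9.08 and 9.16 in the WT arrays, so the null mice differed by 0.90 and the WT mice by 0.09. Aldh18a1, which makes the precursor of proline and ornithine, was at 7.57 and 8.44 in the null arrays, against 8.08 and 8.14 in the WT arrays.

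The serine pathway starts with Phgdh, goes on through Psat1 and ends with Psph. Phgdh was at 6.77 and 7.13 in the null arrays, against 6.73 and 6.95 in the WT arrays, and was the 1 synthesis enzyme whose null 1 value lay between the WT values. Psat1 was at 5.98 and 6.78 in the null arrays, against 6.60 and 6.60 in the WT arrays. Psph was at 5.20 and 5.47 in the null arrays, against 5.23 and 5.28 in the WT arrays, so its null gap of -0.27 was narrower than that of Psat1 (-0.81). Serine then feeds the mitochondrial one-carbon enzymes Shmt2, which makes glycine, and Mthfd2. Shmt2 was at 7.93 and 8.61 in the null arrays, against 8.40 and 8.47 in the WT arrays. Mthfd2 was at 7.78 and 8.38 in the null arrays, against 7.89 and 8.09 in the WT arrays. The 7 differences lay between -0.23 ± 0.32 (Asns) and 0.11 ± 0.17 (Phgdh, SE), and limma adjusted p was 0.853 or higher.

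**Figure D4:**
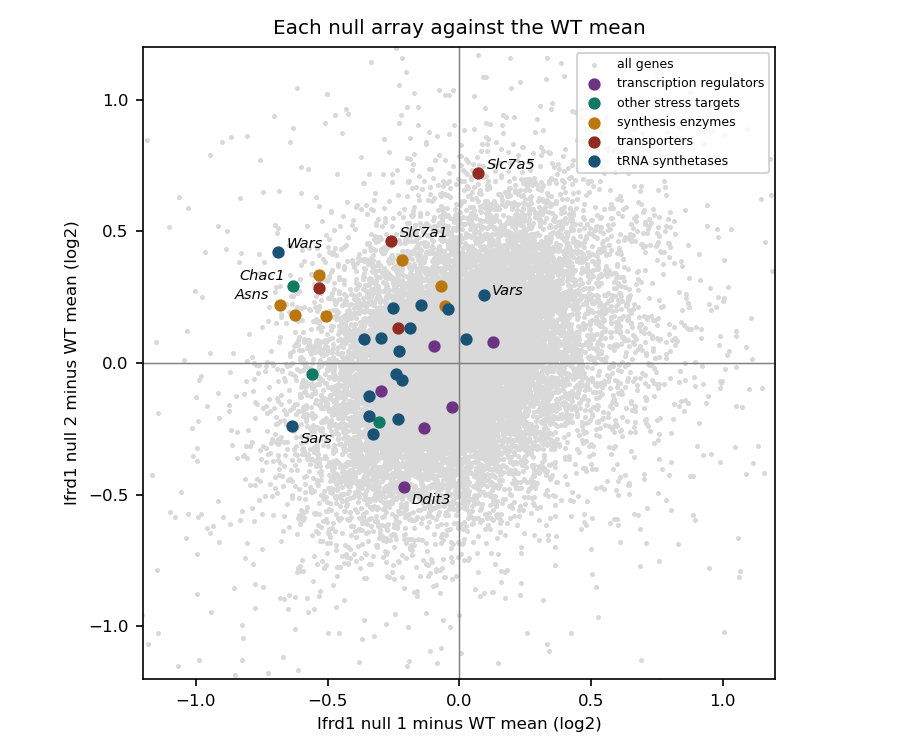
Each gene's level in Ifrd1 null 1 (x axis) and in Ifrd1 null 2 (y axis), each minus the WT mean (log2), with all genes in grey and members coloured by role (some grey points lie outside the axes). Synthesis enzymes and most transporters lie in the upper left, with null 1 below and null 2 above the WT mean, whereas Ddit3 and Sars lie in the lower left, below it in both.

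Transporters followed the same order of arrays. Null 2 was above both WT arrays for 4 of 4, and null 1 was below both for 3 of 4. WT 1 was also below WT 2 for 4 of 4, with a median gap of -0.24, against -0.68 between the null arrays. Slc7a5, the leucine importer LAT1, was at 9.20 and 9.85 in the null arrays, against 9.02 and 9.23 in the WT arrays. Null 2 exceeded both WT arrays, but null 1 lay between the WT values. The difference of the group means, 0.40 ± 0.25 (SE), had a limma adjusted p of 0.762. Slc3a2, the heavy chain that Slc7a5 and Slc7a11 need to reach the membrane, was at 9.81 and 10.17 in the null arrays, against 9.95 and 10.12 in the WT arrays (-0.05 ± 0.17, SE), a sign that turned with quantile normalization (0.03). The partners of the LAT1 dimer thus had differences of 0.40 and -0.05, and the difference between them was not tested.

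Slc7a1, which imports arginine and lysine, was at 6.79 and 7.51 in the null arrays, against 6.91 and 7.18 in the WT arrays (0.10 ± 0.28, SE). Slc7a11 was at 4.31 and 5.13 in the null arrays, against 4.60 and 5.08 in the WT arrays (-0.12 ± 0.33, SE). The array medians were 4.15 and 4.13 in the null arrays and 4.11 and 4.08 in the WT arrays, so null 1 lay closest to its own median, and a second, dimmer row of Slc7a11 gave a difference of 0.06. The median over the 4 transporters, 0.03, turned to -0.24 without Ifrd1 null 2 and to -0.08 without WT 1, and was 0.37 without Ifrd1 null 1, 0.18 without WT 2 and 0.10 with quantile normalization.

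The cytosolic tRNA synthetases each load 1 kind of amino acid onto its tRNA (Eprs loads both glutamate and proline, and Farsa and Farsb form 1 enzyme). Of 17 measured, 13 were lower and 4 higher in the null, around a median difference of -0.13. The median was 0.09 without Ifrd1 null 1 (7 of 17 lower) and -0.24 without Ifrd1 null 2 (15 lower), and it was -0.05 without WT 2 and -0.06 with quantile normalization. All 17 were lower in null 1 than in null 2, yet the median gap of -0.25 was smaller than that of the synthesis enzymes. The WT arrays had this order too, with 15 of 17 lower in WT 1 than in WT 2 and a median gap of -0.10. The groups did not overlap for 6 lower synthetases (35.3%, against 19.7% of all genes and 29.1% of genes above the median level) and 1 higher one (5.88%, against 16.1% and 8.82%).

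Sars, which loads serine, had the widest difference of all members. It was at 9.34 and 9.74 in the null arrays, against 9.90 and 10.05 in the WT arrays (limma adjusted p = 0.722). Both null arrays lay below both WT arrays, null 1 by more. Qars, for glutamine, was at 8.01 and 8.15 in the null arrays, against 8.32 and 8.38 in the WT arrays (-0.27 ± 0.11, SE). Rars, for arginine, was at 8.07 and 8.13 in the null arrays, against 8.24 and 8.55 in the WT arrays (-0.30 ± 0.15, SE). In Rars the null arrays lay closer to each other (0.06) than the WT arrays did (0.31).

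Gars, for glycine, was at 8.98 and 9.00 in the null arrays, against 9.09 and 9.33 in the WT arrays (-0.22 ± 0.13, SE). Lars, for leucine, was at 7.47 and 7.69 in the null arrays, against 7.78 and 7.85 in the WT arrays (-0.23 ± 0.13, SE). Nars, for asparagine, was at 9.47 and 9.62 in the null arrays, against 9.62 and 9.74 in the WT arrays (-0.14 ± 0.12, SE), where null 2 and WT 1 almost met. Vars, for valine, went the other way, with 7.47 and 7.64 in the null arrays, against 7.33 and 7.43 in the WT arrays (0.18 ± 0.12, SE). The limma adjusted p of these synthetases and of Sars, Qars and Rars lay between 0.722 and 0.792.

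Wars, for tryptophan, is a synthetase that interferon also induces, and it had the widest null gap of all members. It was at 8.42 and 9.53 in the null arrays, against 9.11 and 9.10 in the WT arrays, so the null mice differed by 1.11 and the WT mice by 0.01. The other 9 synthetases had overlapping groups and differences between -0.14 (Iars) and 0.08 (Hars), and those of Farsb and Tars turned sign with quantile normalization (0.04 and 0.07).

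**Figure D5:**
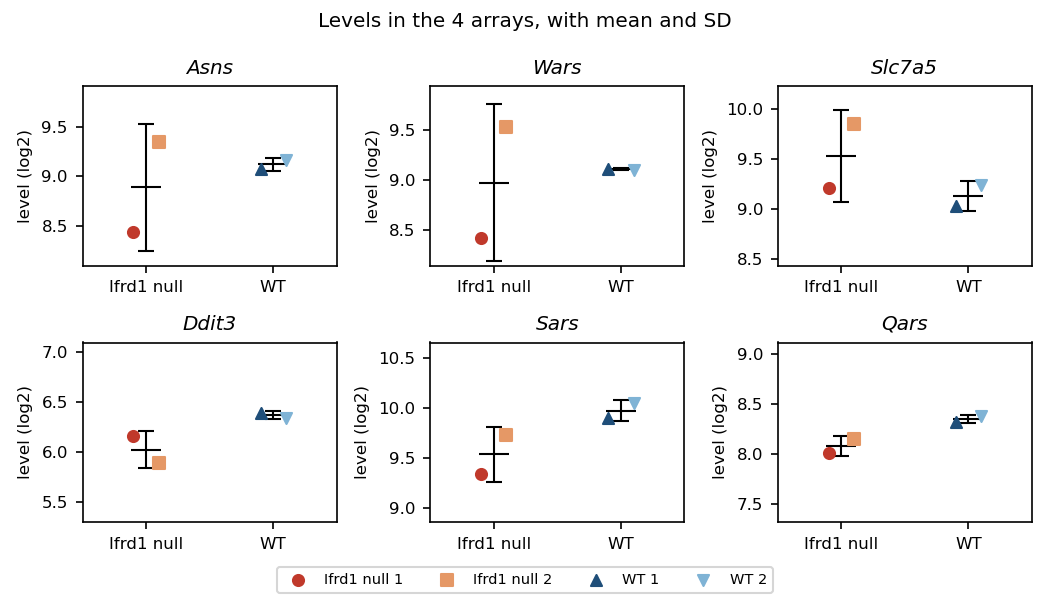
Levels (y axis, log2) of 6 members in the Ifrd1 null arrays (left) and the WT arrays (right) of each panel, with a bar for the mean and whiskers for the SD (n = 2 each). In Asns and Wars the null arrays lie on either side of the WT arrays, in Slc7a5 null 1 lies between the WT values, and in Ddit3, Sars and Qars both null arrays lie below both WT arrays.

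Several synthetases sit in one multisynthetase complex, a grouping applied after the values were seen. All 6 measured synthetases of it (Eprs, Iars, Lars, Qars, Rars and Kars) were lower in the null (median difference -0.19), as were 7 of the 11 others (median difference -0.03). The 6 ranged from -0.30 (Rars) to -0.10 (Eprs). Without Ifrd1 null 1 the median was -0.08, and Eprs stood at 0.10 and Kars at 0.09. Without Ifrd1 null 2 the median was -0.33, and with quantile normalization -0.10 (6 lower). Without WT 2, Eprs stood at 0.05, so the shared direction of the 6 was lost without either Ifrd1 null 1 or WT 2. Of the scaffold proteins of the complex, Aimp1 was at -0.12 ± 0.13 and Eef1e1 at 0.38 ± 0.14 (SE). Eef1e1 was at 8.00 and 8.28 in the null arrays, against 7.70 and 7.82 in the WT arrays, higher in both.

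Of 61 further genes of the pathway that were measured, 0 passed an adjusted p of 0.05 in limma. At unadjusted p under 0.05 there were 4 (6.56%), all lower in the null, where 3.63% of all genes and 5.41% of genes above the median level were. Of 18 further ATF4 targets, 14 were lower and 4 higher, with a median of -0.10, which was -0.32 without Ifrd1 null 2, 0.01 without Ifrd1 null 1 and -0.04 with quantile normalization (12 lower). Sesn2, an inhibitor of the growth kinase complex mTORC1 that p53 also induces, was at 5.55 and 5.88 in the null arrays, against 6.31 and 6.70 in the WT arrays (-0.79 ± 0.20, SE). Slc7a3, an arginine transporter on the X chromosome, was at 6.12 and 6.24 in the null arrays, against 6.52 and 6.82 in the WT arrays (-0.50 ± 0.15, SE). Herpud1, which serves degradation of unfolded protein, was at 9.59 and 10.17 in the null arrays, against 9.58 and 9.52 in the WT arrays (0.34 ± 0.22, SE). Sesn2 and Slc7a3 were lower in both null arrays, and their mean differences were wider than that of any of the 37 members.

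Among the 61 further pathway genes, Cth and Cbs had the widest gaps between the null mice, and were named for them after the values were seen. Cth, the last enzyme of transsulfuration, was at 5.58 and 7.28 in the null arrays, against 6.53 and 6.76 in the WT arrays, and Cbs, the enzyme before it, at 7.62 and 8.50 in the null arrays, against 8.18 and 8.28 in the WT arrays. Their null gaps of -1.69 and -0.88 had the same sign as that of the cystine importer Slc7a11 (-0.82). That sign was common, being held by 33 of 37 members and 14 of 18 further ATF4 targets.

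Upstream of ATF4, 7 of 12 measured eIF2 kinases, phosphatase subunits, eIF2B subunits and the kinase inhibitor Impact were lower and 5 higher, with a median of -0.09 (0.02 without Ifrd1 null 1, -0.16 without Ifrd1 null 2 and -0.03 with quantile normalization). Eif2ak3, which encodes the endoplasmic reticulum kinase PERK, was at 8.95 and 8.87 in the null arrays, against 9.12 and 9.24 in the WT arrays (-0.27 ± 0.11, SE). Eif2ak2, the double-stranded RNA kinase PKR and an interferon-induced gene, was at 6.43 and 6.11 in the null arrays, against 5.97 and 5.96 in the WT arrays (0.30 ± 0.15, SE). The 2 kinases thus lay on opposite sides, each with groups that did not overlap. Over the list this held for 4 of 12 lower (33.3%, against 19.7% of all genes and 29.1% of genes above the median level). It held for 1 higher (8.33%, against 16.1% and 8.82%).

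Mitochondrial tRNA synthetases, which serve the translation of mitochondrial mRNA, had null arrays about as close to each other as the WT arrays. Null 1 was below null 2 for 12 of 16 and above it for 2, and the widest gap was that of Mars2 (-0.49). WT 1 was below WT 2 for 10 of 16. Of 16 measured, 12 were lower in the null and 4 higher, around a median difference of -0.05. Their median absolute null gap was 0.07, against 0.09 between the WT arrays, 0.17 over all genes and 0.25 for the cytosolic ones. The null gap was the wider one for 7 of 16 (43.8%, against 55.4% of all genes). With quantile normalization 8 were lower. Fars2, for phenylalanine, was at 6.13 and 6.06 in the null arrays, against 6.62 and 6.53 in the WT arrays (-0.48 ± 0.11, SE; limma adjusted p = 0.721). Hars2, for histidine, was at 5.33 and 5.36 in the null arrays, against 5.72 and 5.73 in the WT arrays (-0.38 ± 0.10, SE). Iars2, for isoleucine, was at 6.40 and 6.74 in the null arrays, against 6.85 and 6.88 in the WT arrays (-0.29 ± 0.15, SE). In these 3 genes, named for their level or p, the groups did not overlap. Over the list this held for 6 of 16 lower (37.5%, against 19.7% of all genes and 29.1% of genes above the median level). It held for 2 higher (12.5%, against 16.1% and 8.82%). The cytosolic counterparts stood at 0.06 (Farsa), -0.03 (Farsb), 0.08 (Hars) and -0.14 (Iars). Of 13 further one-carbon and glycine enzymes, 8 were lower and 5 higher, with a median of -0.05 that turned to 0.01 with quantile normalization, to 0.02 without WT 1 and to 0.06 without Ifrd1 null 1. Glul, which makes glutamine, stood at 0.18 ± 0.12 and Amt, of the glycine cleavage system, at 0.16 ± 0.10 (SE).

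Members can also be divided by the C/EBP-ATF core in their promoter windows. Of the 10 with it, 9 were lower in the null (median difference -0.19), and of the 19 with a window but no match, 13 were lower (median difference -0.10), where 67.3% of genes above the median level were lower. These counts rested on single arrays: without Ifrd1 null 1, 5 of the 10 (median 0.08) and 5 of the 19 (0.10) were lower, and without WT 2, 7 of the 10 (-0.14) and 10 of the 19 (-0.01). With quantile normalization 8 of the 10 (-0.13) and 10 of the 19 (-0.0066) were lower. Their median gaps between the null arrays were -0.41 and -0.36. No test was made of either contrast, since genes are not replicates.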

How the data were processed

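Whole-pancreas RNA of 2 Ifrd1 null and 2 WT mice was measured on 4 arrays, and this number limits the precision. The deposited values, 1 per probe set, were read as log2 from their range (0.218 to 13.9). How the authors corrected background and normalized, and the log base, are not stated in the labels. The table had 41345 rows, of which 23521 carried 1 gene symbol in the platform annotation, 1814 several and 16010 none. These gave 22180 genes, each by its brightest row. Genotypes were compared with limma 3.58.1 in R 4.3.3 (lmFit and eBayes), with Benjamini-Hochberg adjustment over all genes, and the procedure was tested on simulated data. P-values and SEs measure the spread between these 4 samples, with each gene's variance moderated by eBayes towards a value drawn from all genes. They thus do not rest on a gene's own 4 values alone. Every member is named, as are, of each further pathway list, the gene with the highest mean and the 2 with the smallest p. Members and lists were chosen with earlier results of these data known. Promoters are RefSeq sequences (GRCm38.p6). Alternatives were quantile normalization, median centring, a filter on dim genes, trend and robust eBayes, the mean over rows, a block on replicate number, leaving out X and Y genes, and leaving out each array.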

Additional observations from a re-analysis of the deposited data

How the results depend on the processing

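With 2 arrays a group, single mice set most values. None of the 37 members passed an adjusted p of 0.05 under any alternative, and the lowest adjusted p lay between 0.473 and 0.89. Over all genes 1 passed, Uty. Centring arrays on their medians gave 5, as did trend and robust eBayes (5), while the replicate block gave 4; there were 0 among genes above the median level, 0 without X and Y genes and 0 without any 1 array; 1532 genes had an unadjusted p under 0.05 in limma. The correlation of same-numbered deviations was -0.0352, while replicate 1 was below replicate 2 for 33 of 37 members in the null and 31 of 37 in WT. These values do not settle whether the replicate numbers pair the samples. With the block the lowest limma adjusted p of a member was 0.86. Quantile normalization moved the median of the regulators to -0.0508 and turned Atf4 (0.07), Slc3a2 (0.0265), Farsb (0.0446) and Tars (0.0741), with the cause not tested. The promoter share was 24.1% with TGATGCAA alone. Leaving out each array moved the median of all members between -0.24 and 0.0951, of regulators between -0.22 and -0.0705, of other stress targets between -0.56 and -0.0435, of synthesis enzymes between -0.50 and 0.22, of transporters between -0.24 and 0.37, of cytosolic synthetases between -0.24 and 0.0907, of the eIF2 list between -0.16 and 0.0220, of further ATF4 targets between -0.32 and 0.0113, of further one-carbon enzymes between -0.0905 and 0.0631 and of mitochondrial synthetases between -0.11 and -0.0100. It turned the sign of 22 members, 14 of them without Ifrd1 null 1. Their ranges were -0.0967 to 0.0646 for Atf4, -0.22 to 0.0303 for Atf5, -0.63 to 0.29 for Chac1, -0.68 to 0.22 for Asns, -0.62 to 0.18 for Psat1, -0.0690 to 0.29 for Phgdh, -0.0536 to 0.22 for Psph, -0.50 to 0.18 for Shmt2, -0.22 to 0.39 for Mthfd2, -0.53 to 0.33 for Aldh18a1, -0.53 to 0.29 for Slc7a11, -0.23 to 0.13 for Slc3a2, -0.26 to 0.46 for Slc7a1, -0.23 to 0.0474 for Cars, -0.30 to 0.0951 for Eprs, -0.0369 to 0.15 for Farsa, -0.19 to 0.13 for Farsb, -0.0416 to 0.20 for Hars, -0.36 to 0.0922 for Kars, -0.25 to 0.21 for Tars, -0.69 to 0.42 for Wars and -0.14 to 0.22 for Yars; Ifrd2, the paralog of Ifrd1, ran from -0.47 to 0.31. The other 15 members kept their sign in each of these settings.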
